A study of Mus musculus with 12 samples.

Results

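Hepcidins, iron transport and heme synthesis were followed through 9 listed genes in mouse liver: the hepcidins Hamp and Hamp2, the transferrin receptors Tfrc and Tfr2, the plasma iron carrier Trf, the iron exporter Slc40a1 (ferroportin), and the heme synthesis enzymes Alas1, Alas2 and Fech. Members were the probe sets, groups of short array oligonucleotides read as 1 signal, whose annotated gene symbol was on that list. They came to 18 probe sets of 8 genes, among 12393 genes with a probe set of their own, and all 8 were among the 7217 genes bright enough to test. Trf was present only on 1 probe set annotated to both Trf and Srprb, so no value was given to Trf itself. The livers came from 12 female C57BL/6 mice, an inbred laboratory strain, with 1 Affymetrix array per mouse. Testosterone mice had been injected under the skin 2 times per week for 3 weeks with 0.9 mg testosterone, given in 100 µl of sesame oil, and vehicle mice with 100 µl of the oil alone. Livers were taken from 3 testosterone and 3 vehicle mice at the end of treatment, and from 3 testosterone and 3 vehicle mice after withdrawal. The sample labels give 12 weeks for the withdrawal, whereas the design text gives 3 weeks, and the length is not settled here.

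Hepcidin is a peptide hormone made by hepatocytes that binds ferroportin, the only known cellular iron exporter, and sends it for degradation, which holds iron inside macrophages, gut cells and hepatocytes. Mice carry a second hepcidin gene, Hamp2, whose peptide, unlike that of Hamp, did not lower iron when overproduced in transgenic mice. Transcription of hepcidin is driven by bone morphogenetic protein (BMP) and SMAD signalling, which reports iron stores, and by STAT3 during inflammation. Heme synthesis starts with 5-aminolevulinate synthase, present as the housekeeping enzyme ALAS1, which heme represses in liver, and the X-linked erythroid enzyme ALAS2, and ends with ferrochelatase, encoded by Fech, which inserts the iron.

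Signals below are linear array intensities, log2 changes are given ± their standard error, and a gene was called where its p-value, adjusted over the 7217 genes, was under 0.05. The median signal of an array lay between 20.03 and 22.44, and within a group the arrays correlated with each other at r = 0.979 to 0.989. The 16 hepatocyte genes used as a tissue check were all bright enough to test, and their summed signal was 62460 to 63380 in testosterone mice and 61740 to 65940 in vehicle mice when treatment ended. Of the 16 genes, 1 rose and 2 fell at that time, or 18.8% called beside 17.4% of all genes, with 5 at an unadjusted p under 0.05. After withdrawal the sum was 64630 to 75240 in testosterone mice and 60950 to 66740 in vehicle mice. There 2 of the 16 genes rose and 0 fell, or 12.5% called beside 6.00% of all genes. At the withdrawal time 7 had an unadjusted p under 0.05, and the median log2 change was 0.14. Of 10 genes with sex-biased liver expression, 5 rose and 5 fell at each time, beside 17.4% and 6.00% of all genes called. These 10 were chosen with earlier results of these data known, so their count is no test of the treatment. The call of 1 of them at the end, Slco1a1, was lost in 10 of the 12 cases with 1 mouse left out. Vehicle mouse 2 at the end of treatment stood apart in acute phase genes: Lcn2 read 2008 there, against 102 and 56.4 in the other vehicle mice of that time. The 3' to 5' signal ratio of beta-actin, which moves with RNA quality and copying length, was 2.03 to 2.19 in testosterone mice and 1.44 to 1.64 in vehicle mice when treatment ended. In the withdrawal groups it was 1.47 to 1.82 in testosterone mice and 1.60 to 1.89 in vehicle mice. The part of the ratio in the results at the end of treatment was not tested beyond the fit that includes it, given where it ended a call. At the end the ratio did not overlap between the treatments, so that fit cannot well separate the 2. A call at the end can be lost there through lost precision alone. The share of all genes called in that fit is not given here, so its counts are not read as results about a list. In whole liver RNA, fewer cells of a type and less RNA per cell cannot be told apart, and 3 arrays per group limit the precision.

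At the end of treatment 2 of the 8 members were called, Hamp2 lower and Alas2 higher in testosterone mice, beside 17.4% of all genes tested (9.42% higher and 8.01% lower). After withdrawal 4 of the 8 were called, Hamp2 and Slc40a1 lower and Tfrc and Alas2 higher, beside 6.00% of all genes (2.74% higher and 3.26% lower). Hamp2 and Alas2 were called in the same direction at both times, as were 3.05% of all genes. The test of the difference between the 2 testosterone effects called 0 of the 8 by limma, with 1 at an unadjusted p under 0.05, beside 2.19% of all genes, on the brightest probe set of each gene. Because the members were picked with earlier results of these data known, these counts carry no test of their own. Mice of the 2 treatments did not overlap for 2 members at the end of treatment, beside 35.7% of all genes, and for 5 after withdrawal, beside 25.9% of all genes.

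**Figure D1:**
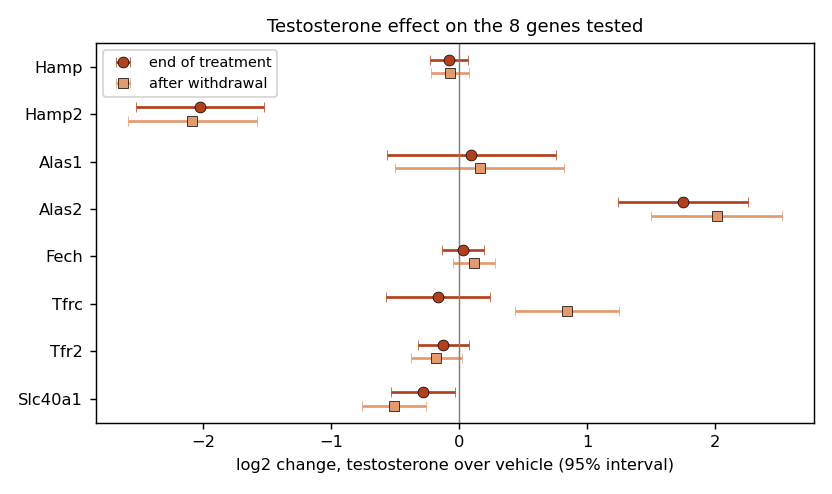
Log2 change, testosterone over vehicle, of the 8 members with a probe set of their own at the end of treatment and after withdrawal, with bars for the 95% interval of the limma fit (3 mice per group). Hamp2 lies at -2.03 and -2.08 and Alas2 at 1.75 and 2.01, while the bars of Hamp and Fech cross 0 at both times.

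The promoters of the hepcidins and of the ALAS genes are shown because the members of each pair moved unequally. RefSeq promoter windows (build GRCm38.p6) matched 6 of the 9 listed genes, with Trf, Slc40a1 and Fech not matched, and the 250 bases before the annotated start were used. In the hepcidin sequences capitals mark GGCGCC, the core of the BMP-responsive element described for hepcidin genes, and TTCNNNGAA, the spacing of STAT sites. Both windows lie on the minus strand of chromosome 7, at chr7:30944030-30944279 for Hamp and chr7:30924182-30924431 for Hamp2.
Hamp: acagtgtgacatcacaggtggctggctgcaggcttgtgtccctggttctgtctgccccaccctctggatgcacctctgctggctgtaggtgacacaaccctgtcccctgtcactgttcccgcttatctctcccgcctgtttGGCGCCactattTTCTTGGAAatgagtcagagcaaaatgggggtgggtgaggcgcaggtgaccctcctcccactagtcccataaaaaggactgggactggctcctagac
Hamp2: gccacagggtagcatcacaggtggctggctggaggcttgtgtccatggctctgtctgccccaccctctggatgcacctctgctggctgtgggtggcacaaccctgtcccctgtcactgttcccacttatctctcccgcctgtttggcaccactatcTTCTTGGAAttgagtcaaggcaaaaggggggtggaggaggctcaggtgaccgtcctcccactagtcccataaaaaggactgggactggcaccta
The 2 windows were 91.9% identical over 247 aligned positions, with 20 substitutions and no internal gap. The substitution G145A, which gives the Hamp base first and the Hamp2 base last and counts from 1 at the 5′ end of the printed Hamp sequence, lies inside GGCGCC. The BMP core was therefore present in the Hamp window, starting at base 142, and absent from the Hamp2 window. The STAT spacing was present in both, starting at bases 154 and 157, with no overlap between the motifs. Over all 32851 promoter windows of this length, read on both strands, 9.59% held GGCGCC and 7.02% held TTCNNNGAA. The motifs were chosen with the sequences in view. A match describes letters only, and binding was not measured.

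Hamp2 mRNA was about 4 times lower in testosterone livers at both times. The Hamp2 signal was 451, 636 and 561 in the 3 testosterone mice and 1389, 2454 and 3188 in the 3 vehicle mice at the end of treatment. After withdrawal it was 954, 788 and 1275 in testosterone mice and 4404, 4357 and 3800 in vehicle mice. All testosterone mice lay below all vehicle mice at each time, with no overlap. Hamp2 was 4.07-fold lower at the end of treatment (log2 change -2.03 ± 0.24, limma adjusted p = 5.19e-05) and 4.24-fold lower after withdrawal (-2.08 ± 0.24, adjusted p = 5.32e-05). The difference between the 2 effects was -0.06 ± 0.33 (95% interval -0.77 to 0.65, limma adjusted p = 0.94). With the actin ratio as a covariate the change at the end was -2.02 and was no longer called (limma adjusted p = 0.0877), while the change after withdrawal was -2.08 and remained called (adjusted p = 0.000499). Without vehicle mouse 2 of the end time the change at the end was -1.95 (limma adjusted p = 0.000385).

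Hamp2 was also higher in mice of the withdrawal time than in mice killed when treatment ended, within each treatment. It averaged 1006 ± 248 at the withdrawal time and 549 ± 92.8 at the end of treatment in testosterone mice (SD, n = 3 each; limma log2 change 0.86 ± 0.24, adjusted p = 0.0296). In vehicle mice it averaged 4187 ± 336 at the withdrawal time and 2344 ± 905 at the end (SD, n = 3 each; limma log2 change 0.92 ± 0.24, adjusted p = 0.0161). The order of the 4 groups was thus testosterone at the end, testosterone after withdrawal, vehicle at the end and vehicle after withdrawal. The middle neighbours of that order, 788 to 1275 in testosterone mice after withdrawal and 1389 to 3188 in vehicle mice at the end, did not overlap and were not compared by a test. Both contrasts between times lost their call with no filter on dim genes, with the actin ratio as a covariate and without single mice: without vehicle mouse 1 of the end time the vehicle contrast was 0.58, and without testosterone mouse 3 of the withdrawal time the testosterone contrast was 0.67. Without vehicle mouse 2 of the withdrawal time the vehicle contrast was 0.89 and not called. The testosterone contrast was not called without testosterone mouse 1 (0.72) or mouse 3 (0.88) of the end time or mouse 1 of the withdrawal time (0.88).

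Hamp, the hepcidin that acts on ferroportin, was not called in any comparison. Its signal was 3749, 3667 and 3716 in testosterone mice and 3523, 3981 and 4297 in vehicle mice when treatment ended. In the withdrawal groups it was 3965, 4181 and 3938 in testosterone mice and 4433, 4092 and 4180 in vehicle mice. On this brightest Hamp probe set, 1419196_at, the treatments overlapped at both times, and the highest signal over all 12 arrays was 1.26 times the lowest. The log2 change was -0.08 ± 0.07 at the end (95% interval -0.23 to 0.07, limma adjusted p = 0.469) and -0.07 ± 0.07 after withdrawal (95% interval -0.22 to 0.08, limma adjusted p = 0.591). Hamp signals stood at the 99.7th to 99.9th percentile of their arrays, whose brightest probe sets read 5980 to 7384, and how far so bright a signal still follows the RNA amount was not tested. The same limit holds for Hamp2 in vehicle mice after withdrawal, at 3800 to 4404. Over all arrays Hamp2 reached the 99.9th percentile. The second Hamp probe set, 1419197_x_at, read 3184 to 3316 in testosterone mice and 3273 to 4036 in vehicle mice at the end. After withdrawal it read 3551 to 3830 in testosterone mice and 3841 to 4215 in vehicle mice, with no overlap. Its log2 changes of -0.18 ± 0.07 and -0.11 ± 0.07 were not called (limma adjusted p = 0.101 and 0.442 over probe sets). Testosterone mice of the 2 times did not overlap on either Hamp set, and the change on 1419197_x_at was 0.20 ± 0.07 (limma adjusted p = 0.111 over probe sets).

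**Figure D2:**
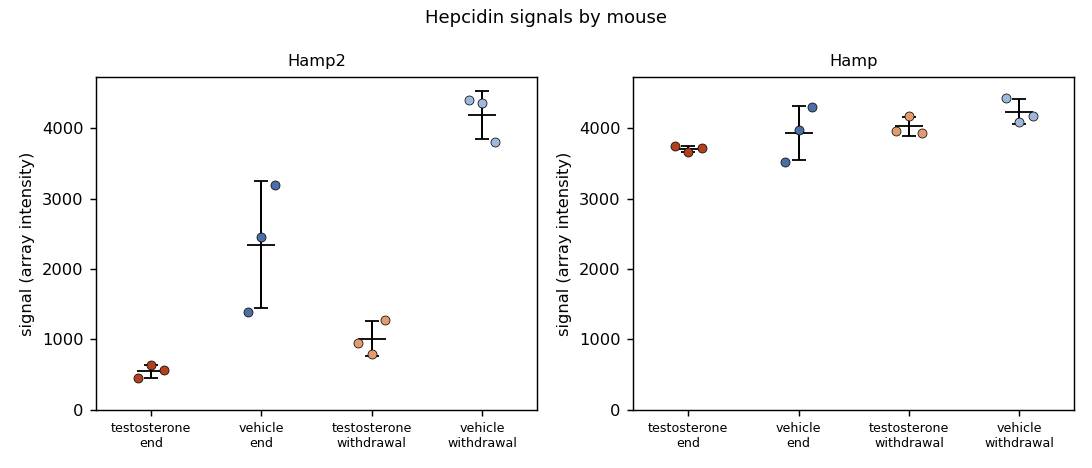
Array signal of Hamp2 (left) and Hamp (right) in each mouse, with points for mice and lines for the group mean ± SD (n = 3 per group). Testosterone mice lie below vehicle mice at both times for Hamp2, at 451 to 1275 against 1389 to 4404, while Hamp lies between 3523 and 4433 in all groups.

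The Hamp2 values rest on 1 probe set, 1436643_x_at, whose name ending marks probes that can also match other transcripts. Hamp and Hamp2 mRNAs are close in sequence, and the share of this signal that came from Hamp was not tested. The other Hamp2 probe set, 1456289_at, read 0.868 to 3.78 on the 12 arrays, below the floor of 4.84 on all of them, and carried no information.

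Within a mouse, the difference of the log2 signals of Hamp2 and Hamp shows how unequally the pair moved, and its zero has no meaning because signals of different probes are not on 1 scale. The difference was -3.05, -2.53 and -2.73 in testosterone mice and -1.34, -0.70 and -0.43 in vehicle mice when treatment ended. After withdrawal it was -2.06, -2.41 and -1.63 in testosterone mice and -0.01, 0.09 and -0.14 in vehicle mice. No testosterone mouse overlapped a vehicle mouse of its time. Over both times the testosterone mean was lower by 1.98 log2 units, recorded as -1.98, with p = 0.005 in a two-sided exact permutation test within times, the smallest value its 400 permutations allow, and 0.005 after Benjamini-Hochberg adjustment over the 2 pairs. The same difference was -1.95 at the end and -2.01 after withdrawal, each with an exact permutation p = 0.1, the smallest that 3 mice against 3 allow. With the second Hamp probe set, an alternative chosen after seeing the data, the difference over both times was -1.91 (exact permutation p = 0.005).

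**Figure D3:**
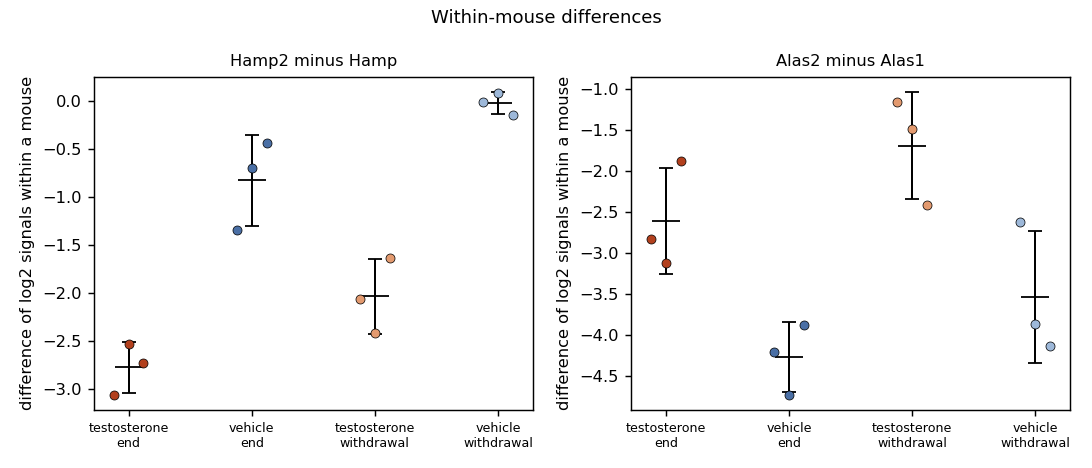
Difference of log2 signals within each mouse, Hamp2 minus Hamp (left) and Alas2 minus Alas1 (right), with points for mice and lines for the group mean ± SD (n = 3 per group). The hepcidin difference lies lower and the ALAS difference higher in testosterone mice at both times.

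Over the 12 mice the tested genes whose log2 signal followed Hamp2 most closely were Cyp2c38, a cytochrome P450 (Pearson r = 0.98, Spearman rho = 1.0), Slc22a29, an organic anion transporter family member (0.97 and 0.98), Hao2, a peroxisomal hydroxy acid oxidase (0.96 and 0.94), and Agmat, an agmatinase (0.95 and 0.94). All 4 were also lower in testosterone mice at both times, with log2 changes at the end of -1.34 ± 0.13, -3.04 ± 0.30, -3.16 ± 0.35 and -0.44 ± 0.08 in that order. The genes closest to Hamp were Med24, Ces1d, Tspyl4 and Itgb1bp1, with r between 0.80 and 0.89, and the lowest limma adjusted p of the 4 between treatments at either time was 0.201. These correlations describe the 12 arrays, which share the 4 group levels, and carry no test.

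Of the 20 tested genes that control hepcidin, 3 rose and 2 fell at the end of treatment, or 25% called beside 17.4% of all genes (median log2 change 0.02, against 0.04 over all genes). After withdrawal 1 rose and 1 fell, or 10% beside 6.00% of all genes (median -0.16, against -0.04). Both shares are near those over all genes, and the values below describe single genes. Id1, a transcriptional regulator induced by BMP signals, read 28.3, 34.7 and 29.7 in testosterone mice and 70.3, 85.6 and 63.6 in vehicle mice at the end. After withdrawal it read 66.4, 75.7 and 54.7 in testosterone mice and 167, 94.8 and 181 in vehicle mice. Testosterone mice lay below vehicle mice at both times, with log2 changes of -1.24 ± 0.21 (limma adjusted p = 0.00125) and -1.13 ± 0.21 (limma adjusted p = 0.00465). Egfr, the epidermal growth factor receptor, rose at both times, by 0.74 ± 0.19 at the end and 1.30 ± 0.19 after withdrawal on the log2 scale (limma adjusted p = 0.0135 and 0.000473).

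Other hepcidin control genes were called at the end of treatment. Bmp2, a ligand of the pathway, averaged 83.3 ± 15.4 in testosterone mice and 54.5 ± 15.0 in vehicle mice (SD, n = 3 each; limma adjusted p = 0.046). Smad1, a signal carrier, rose by 0.51 ± 0.16, and Smad6, an inhibitor of the pathway, fell by 0.70 ± 0.17 (limma adjusted p = 0.0373 and 0.0132). Bmp6, the ligand most tied to iron stores, read 17.6 to 23.4 in testosterone mice and 18.6 to 25.3 in vehicle mice at the end, with the treatments overlapping. With the actin ratio as a covariate, 0 of the 20 was called by limma at the end, with 2 at an unadjusted p under 0.05, and 1 rose and 1 fell after withdrawal. Without vehicle mouse 2 of the end time, 1 rose and 3 fell at the end. When each of the 12 mice was left out in turn, the call at the end was lost in 9 cases for Bmp2 and in 5 for Smad1, without vehicle mouse 1 for Smad6 (-0.61) and without vehicle mouse 3 for Egfr (0.54).

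Acute phase genes moved beside Hamp2 at the end of treatment. Of 23 tested, 10 fell and 1 rose (4 fell and 0 rose with the actin ratio as a covariate), beside 17.4% of all genes called. Their summed signal was 33200 to 34380 in testosterone mice and 39970, 59380 and 37890 in vehicle mice 1 to 3. Without vehicle mouse 2, 9 fell and 1 rose. With all mice included, the gene that rose at the end was Socs3 (log2 change 1.195). Its call was lost in 2 of the 12 cases with 1 mouse left out. After withdrawal 3 fell (Orm3, Mt1 and Mt2) and 0 rose, or 13.0% called beside 6.00% of all genes. The sums overlapped at that time, at 35680 to 39520 in testosterone mice and 36430 to 39080 in vehicle mice. The part of inflammation in the Hamp2 result was not tested.

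Tfrc, transferrin receptor 1, takes up transferrin-bound iron, and its mRNA is stabilised in iron-poor cells. On its brightest probe set, 1452661_at, it read 196, 323 and 203 in testosterone mice and 215, 278 and 305 in vehicle mice when treatment ended. After withdrawal it read 219, 164 and 209 in testosterone mice and 101, 130 and 99.3 in vehicle mice. The treatments overlapped at the end and did not overlap after withdrawal, where all testosterone mice were higher. The log2 change was -0.17 ± 0.19 at the end (limma adjusted p = 0.588) and 0.84 ± 0.19, or 1.79-fold, after withdrawal (limma adjusted p = 0.0153). The later call was lost without testosterone mouse 3 (0.79) or vehicle mouse 3 (0.77) of the withdrawal time, with no filter on dim genes (0.84, limma adjusted p = 0.104) and with the mean of the Tfrc probe sets (0.54, limma adjusted p = 0.0601). The difference between the 2 effects was 1.01 ± 0.27 (limma adjusted p = 0.0602).

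In vehicle mice Tfrc fell to 110 ± 17.3 at the withdrawal time, against 266 ± 46.0 at the end (SD, n = 3 each; limma log2 change -1.27 ± 0.19, adjusted p = 0.000684), whereas testosterone mice averaged 197 ± 29.3 at the withdrawal time and 241 ± 71.2 at the end (-0.26 ± 0.19, limma adjusted p = 0.424). The second Tfrc probe set, 1422966_a_at, differed from the first at the end of treatment: it read 12.1, 22.9 and 24.0 in testosterone mice and 57.0, 60.6 and 71.6 in vehicle mice. After withdrawal it read 22.5, 24.6 and 32.9 in testosterone mice and 17.9, 18.0 and 11.5 in vehicle mice. Testosterone mice were thus lower at the end and higher after withdrawal, with no overlap. In a fit of all 12108 probe sets its log2 change was -1.74 ± 0.27 at the end (limma adjusted p = 0.00066) and 0.76 ± 0.27 after withdrawal (limma adjusted p = 0.128), and the difference between them was 2.50 ± 0.38 (limma adjusted p = 0.00582). A control probe set for the 3' end of the same mRNA read 9.51 to 17.5 in testosterone mice and 24.6 to 34.3 in vehicle mice at the end. Which part of the Tfrc transcript each set reads was not examined here, and the actin ratio moved with the same groups.

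Slc40a1, ferroportin, was called lower in testosterone livers after withdrawal. On the probe set 1417061_at it read 644, 681 and 696 in testosterone mice and 877, 915 and 688 in vehicle mice when treatment ended. After withdrawal it read 729, 625 and 546 in testosterone mice and 931, 859 and 900 in vehicle mice. The treatments overlapped at the end through vehicle mouse 3 and did not overlap after withdrawal. The log2 change was -0.28 ± 0.12 at the end (limma adjusted p = 0.105) and -0.51 ± 0.12, or 1.43-fold lower, after withdrawal (limma adjusted p = 0.0155). Without vehicle mouse 3 the change at the end was -0.41 and was called (limma adjusted p = 0.0223). The call after withdrawal was lost without testosterone mouse 2 (-0.51) or mouse 3 (-0.41) or vehicle mouse 3 (-0.51) of that time, with no filter on dim genes (limma adjusted p = 0.0782), with the mean of the Slc40a1 probe sets (-0.40, adjusted p = 0.0988) and with the actin ratio as a covariate (-0.41, adjusted p = 0.0801).

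The second Slc40a1 probe set, 1448566_at, moved at the other time. It read 191, 213 and 205 in testosterone mice and 528, 480 and 336 in vehicle mice at the end, with no overlap. Its log2 change was -1.12 ± 0.19 at the end (limma adjusted p = 0.00105) and -0.28 ± 0.19 after withdrawal (limma adjusted p = 0.42). Ferroportin is abundant in iron-recycling macrophages. Of the 20 tested Kupffer cell and macrophage genes, 9 fell at the end of treatment beside 8.01% of all genes (median log2 change -0.70). Among them were Cd68 (-1.12 ± 0.20), C1qb (-1.11 ± 0.23) and Folr2 (-1.07 ± 0.23). With the mean of its probe sets the C1qb change was -0.61 and was not called (limma adjusted p = 0.057). The summed signal of that list was 3722 to 4424 in testosterone mice and 5026 to 7683 in vehicle mice at the end, and 2988 to 3330 in testosterone mice and 2549 to 4617 in vehicle mice after withdrawal, where 0 of the 20 was called by limma and 1 had an unadjusted p under 0.05. With the actin ratio as a covariate 0 of the 20 was called by limma at the end, with 0 at an unadjusted p under 0.05, and without vehicle mouse 2, 7 fell. The part of macrophages in the result of either Slc40a1 probe set was not tested.

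**Figure D4:**
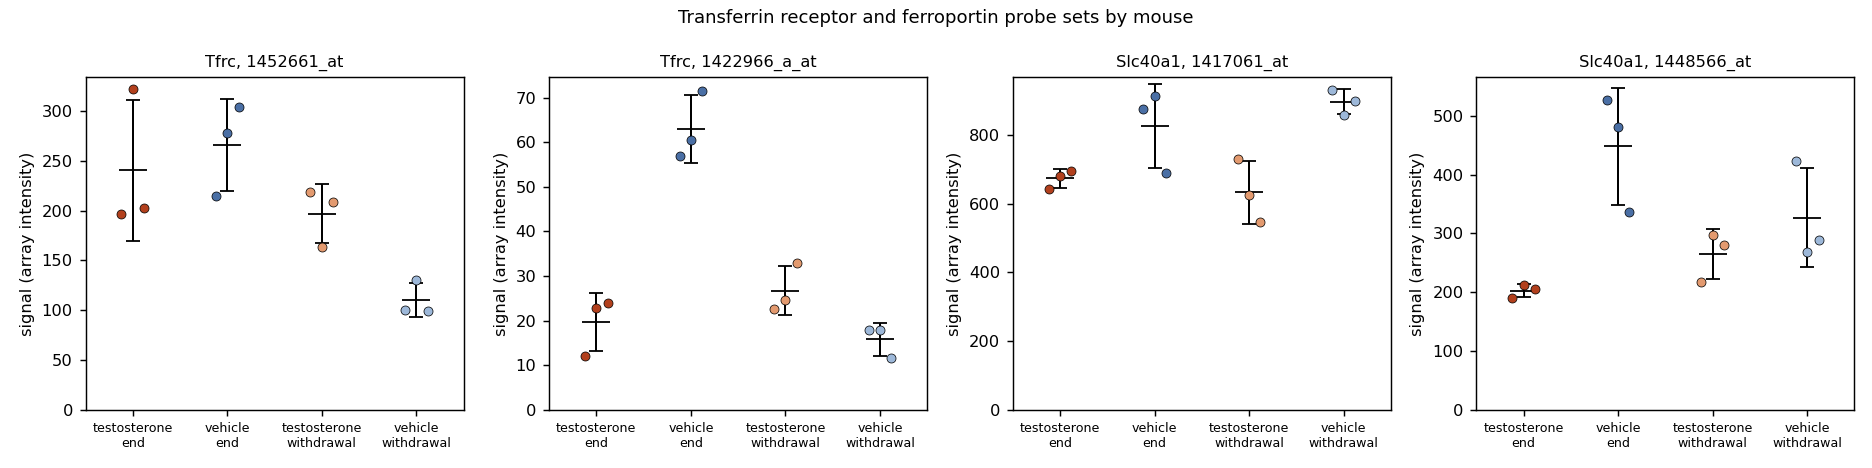
Array signal of 2 probe sets each of Tfrc and Slc40a1 in each mouse, with points for mice and lines for the group mean ± SD (n = 3 per group). The treatments do not overlap after withdrawal on 1452661_at and 1417061_at, at both times on 1422966_a_at, and at the end on 1448566_at.

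Tfr2, the second transferrin receptor, acts in hepatocytes as an iron sensor upstream of hepcidin. Its signal on 1459994_x_at was 1124 to 1291 in testosterone mice and 1200 to 1485 in vehicle mice at the end, and 1163 to 1201 in testosterone mice and 1257 to 1506 in vehicle mice after withdrawal. The mice did not overlap after withdrawal, but the log2 changes of -0.12 ± 0.09 (limma adjusted p = 0.393) and -0.18 ± 0.09 (limma adjusted p = 0.301) were not called. The second Tfr2 probe set, 1425381_a_at, read 753, 760 and 695 in testosterone mice and 864, 899 and 791 in vehicle mice at the end, and 684, 825 and 786 in testosterone mice and 735, 719 and 822 in vehicle mice after withdrawal. On that set the mice did not overlap at the end and overlapped after withdrawal, with log2 changes of -0.21 ± 0.09 and 0.01 ± 0.09 that were not called (limma adjusted p = 0.132 and 0.967 over probe sets). The probe set annotated to both Trf and Srprb read 4112 to 4350 in testosterone mice and 4243 to 4470 in vehicle mice at the end, and 4469 to 5123 in testosterone mice and 4228 to 4412 in vehicle mice after withdrawal. The mice did not overlap after withdrawal, and the log2 change was 0.16 ± 0.06 (limma adjusted p = 0.166).

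Of 15 tested genes for iron uptake, storage and export, 2 rose and 1 fell at the end of treatment, or 20% beside 17.4% of all genes, and by limma 0 was called after withdrawal, with 5 at an unadjusted p under 0.05 (medians 0.03 and 0.00). With the actin ratio as a covariate 0 of the 15 was called by limma at the end, with 3 at an unadjusted p under 0.05. Slc25a37, mitoferrin 1, which brings iron into mitochondria, read 139, 161 and 141 in testosterone mice and 111, 88.7 and 115 in vehicle mice at the end (log2 change 0.49 ± 0.14, limma adjusted p = 0.0251). Pcbp1, an iron chaperone, rose by 0.37 ± 0.09 on the log2 scale (limma adjusted p = 0.0119). The Slc25a37 call was lost without testosterone mouse 2 (0.42) or vehicle mouse 2 (0.38) of the end time, and that of Pcbp1 without testosterone mouse 2 (0.315). Lcn2, which binds iron-carrying siderophores, was lower (log2 change -3.81 ± 0.90, limma adjusted p = 0.0106) and is also one of the acute phase genes. Without vehicle mouse 2 of the end time, where Lcn2 read 2008, its log2 change was -2.23 (limma adjusted p = 0.00589).

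Alas2 rose and Alas1 was not called. The promoter windows lie at chrX:150547167-150547416 on the plus strand for Alas2 and at chr9:106247731-106247980 on the minus strand for the first of the 2 Alas1 windows. Capitals mark TTATCT in the Alas2 sequence, which is the reverse-strand reading of a site for erythroid zinc finger factors, and in the Alas1 sequence CGCATGCG, the core of sites for the factor NRF1.
Alas2: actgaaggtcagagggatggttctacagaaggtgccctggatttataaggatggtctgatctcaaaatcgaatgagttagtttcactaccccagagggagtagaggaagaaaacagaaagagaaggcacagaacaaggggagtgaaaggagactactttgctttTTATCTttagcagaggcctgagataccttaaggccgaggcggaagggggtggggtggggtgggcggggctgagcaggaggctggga
Alas1: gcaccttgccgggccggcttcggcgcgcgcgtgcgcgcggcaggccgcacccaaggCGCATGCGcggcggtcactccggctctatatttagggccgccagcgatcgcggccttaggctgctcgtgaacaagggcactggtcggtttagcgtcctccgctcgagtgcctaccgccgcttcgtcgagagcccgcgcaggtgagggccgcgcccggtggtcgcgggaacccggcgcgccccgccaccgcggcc
The Alas2 window held TTATCT, starting at base 165, and no CGCATGCG. The first Alas1 window, printed here, held CGCATGCG, starting at base 57, and no TTATCT. The second Alas1 window held neither. Of all 32851 windows, 9.99% held TTATCT on either strand and 1.55% held CGCATGCG. The Hamp and Hamp2 windows printed above also hold TTATCT, at bases 123 and 126.

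The Alas2 signal was 257, 257 and 327 in testosterone mice and 89.1, 61.0 and 105 in vehicle mice when treatment ended. In the withdrawal groups it was 251, 342 and 336 in testosterone mice and 112, 73.5 and 53.7 in vehicle mice. All testosterone mice lay above all vehicle mice at both times. Alas2 was 3.36-fold higher at the end (log2 change 1.75 ± 0.24, limma adjusted p = 0.000202) and 4.03-fold higher after withdrawal (2.01 ± 0.24, limma adjusted p = 8.11e-05), with a difference between the effects of 0.26 ± 0.34 (95% interval -0.46 to 0.98, limma adjusted p = 0.69). With the actin ratio as a covariate the changes were 2.88 and 1.69, both called (limma adjusted p = 0.000957 and 0.000174). Between the times Alas2 was not called in testosterone mice (0.14 ± 0.24, limma adjusted p = 0.77) or in vehicle mice (-0.13 ± 0.24, limma adjusted p = 0.751). Alas2 was measured by a single probe set, 1451675_a_at.

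The rise of Alas2 was set beside other red cell genes, because ALAS2 is the enzyme of erythroid cells. The 4 probe sets for alpha and beta globins shared between genes had log2 changes of 0.04 to 0.30 at the end and 0.15 to 0.26 after withdrawal. By limma 0 of 4 was called at either time (unadjusted p of 0.0847 or more), beside 2344 and 593 of all 12108 probe sets. The summed signal of the 4 globin sets was 8910 to 10370 in testosterone mice and 7480 to 11190 in vehicle mice at the end. After withdrawal it was 10410 to 10720 in testosterone mice and 7569 to 11310 in vehicle mice. Of 19 erythroid genes on the array only 4 were bright enough to test. At the end 1 of the 4 rose and 2 fell, beside 9.42% higher and 8.01% lower of all genes. Car1, carbonic anhydrase 1, rose (0.75 ± 0.19), and Klf1, an erythroid transcription factor (-0.54 ± 0.18), and Gypc, a red cell membrane glycoprotein (-1.05 ± 0.19), fell. After withdrawal Car1 rose (0.70 ± 0.19) and the other 3 were not called, beside 6.00% of all genes called. Over the 12 cases with 1 mouse left out, the Klf1 call was lost in 10 and the Car1 call in 3 at the end and in 8 after withdrawal. Without vehicle mouse 2 of the end time 0 rose and 1 fell at the end, and with the actin ratio as a covariate 0 of the 4 was called by limma at either time, with 2 at an unadjusted p under 0.05 at the end. Summed signals of the 19 overlapped, at 207 to 237 in testosterone mice and 207 to 254 in vehicle mice at the end and 187 to 207 in testosterone mice and 205 to 220 in vehicle mice after withdrawal. Epb42 and Rhag, which mark red cell membranes, were at the floor on all arrays.

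Alas1 varied widely among mice. Its signal on 1424126_at was 1825, 2251 and 1211 in testosterone mice and 1641, 1616 and 1546 in vehicle mice when treatment ended. After withdrawal it was 562, 966 and 1798 in testosterone mice and 689, 1076 and 941 in vehicle mice. Testosterone mice lay on both sides of the vehicle mice at both times, with log2 changes of 0.09 ± 0.31 (95% interval -0.57 to 0.75, limma adjusted p = 0.867) and 0.16 ± 0.31 (95% interval -0.50 to 0.82, limma adjusted p = 0.801). Both signs turned in some alternatives. The second Alas1 probe set, 1455282_x_at, read 255 to 441 in testosterone mice and 183 to 226 in vehicle mice at the end, a log2 change of 0.83 ± 0.29 (limma adjusted p = 0.0581 over probe sets). After withdrawal it read 82.9 to 166 in testosterone mice and 90.2 to 183 in vehicle mice, a log2 change of -0.43 ± 0.29 (limma adjusted p = 0.442 over probe sets). Between the times this set was called lower in testosterone mice of the withdrawal time, with a log2 change of -1.74 ± 0.29 and no overlap (limma adjusted p = 0.00186 over probe sets), whereas 1424126_at was not called there (-0.78 ± 0.31, limma adjusted p = 0.124 over probe sets).

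**Figure D5:**
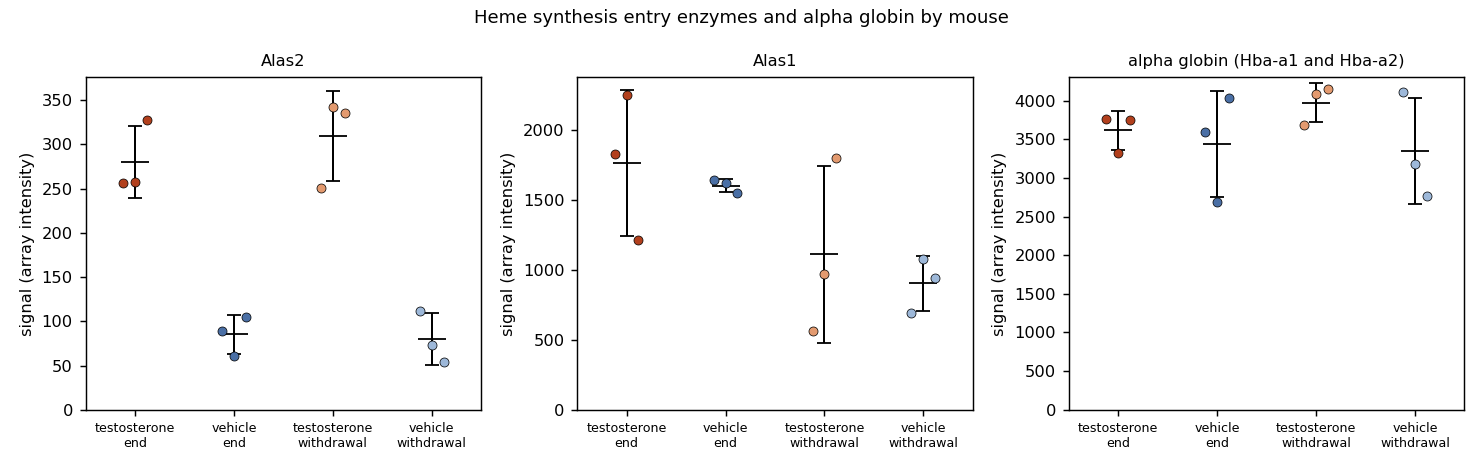
Array signal of Alas2, Alas1 and a probe set shared by Hba-a1 and Hba-a2 in each mouse, with points for mice and lines for the group mean ± SD (n = 3 per group). Alas2 lies at 251 to 342 in testosterone mice against 53.7 to 112 in vehicle mice, while the treatments overlap for Alas1 and alpha globin.

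Within a mouse, the difference of the log2 signals of Alas2 and Alas1 was -2.83, -3.13 and -1.89 in testosterone mice and -4.20, -4.73 and -3.88 in vehicle mice when treatment ended. In the withdrawal groups it was -1.17, -1.50 and -2.42 in testosterone mice and -2.63, -3.87 and -4.13 in vehicle mice. Testosterone mice lay above vehicle mice at both times, with a narrow gap after withdrawal. Over both times the testosterone mean was higher by 1.75 log2 units, with p = 0.005 in the two-sided exact permutation test within times, the smallest it allows, and 0.005 after adjustment over the 2 pairs. It was higher by 1.65 at the end and 1.85 after withdrawal, each with an exact permutation p = 0.1, the smallest that 3 mice against 3 allow. With the second Alas1 probe set, chosen after seeing the data, it was 1.68 (exact permutation p = 0.005).

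The genes closest to Alas2 over the 12 mice were Hsd17b12, a steroid and fatty acid dehydrogenase (Pearson r = 0.94, Spearman rho = 0.80), Omd, osteomodulin (0.93 and 0.87), Gstp1, a glutathione transferase (0.93 and 0.78), and Cyp4a12a, a fatty acid hydroxylase (0.93 and 0.84). All 4 were called higher in testosterone mice at both times. Those closest to Alas1 were Cyb5r1, 1810055G02Rik, Cyp4f13 and Rwdd4a, with r between 0.89 and 0.91, and their lowest limma adjusted p between treatments was likewise 0.201.

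Fech, the last enzyme of heme synthesis, was not called between treatments. On 1418699_s_at it read 790 to 835 in testosterone mice and 788 to 796 in vehicle mice at the end, and 699 to 780 in testosterone mice and 641 to 718 in vehicle mice after withdrawal, with log2 changes of 0.03 ± 0.08 (limma adjusted p = 0.813) and 0.12 ± 0.08 (limma adjusted p = 0.407). The other Fech probe sets read 241 to 464 on all arrays, apart from 1427696_at, which lay below the floor on all of them.

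Of 12 tested genes for enzymes and helpers of heme synthesis, members aside, 3 rose and 0 fell at the end. This was 25% called higher beside 9.42% of all genes, with a median log2 change of 0.03 against 0.04 over all genes. After withdrawal 0 was called by limma beside 6.00% of all genes, with 2 at an unadjusted p under 0.05 (median -0.05). Of the 3 that rose, Cpox encodes an enzyme of the pathway, and Abcb10 and Clpx encode helpers. Cpox, coproporphyrinogen oxidase, read 254, 275 and 245 in testosterone mice and 116, 105 and 147 in vehicle mice at the end. After withdrawal it read 246, 152 and 167 in testosterone mice and 160, 299 and 311 in vehicle mice. The treatments did not overlap at the end and overlapped after withdrawal, with log2 changes of 1.09 ± 0.23 (limma adjusted p = 0.00499) and -0.42 ± 0.23 (limma adjusted p = 0.318). Abcb10, a mitochondrial transporter used in heme synthesis, rose by 0.59 ± 0.11 at the end (limma adjusted p = 0.00304). With the mean of its probe sets the Abcb10 change was 0.40 and was not called (limma adjusted p = 0.0574). Clpx, a mitochondrial unfoldase that acts on ALAS, rose by 0.46 ± 0.11 at the end (limma adjusted p = 0.0122), a call lost without testosterone mouse 1 (0.43). With the actin ratio as a covariate, 0 of the 12 was called by limma at the end, with 2 at an unadjusted p under 0.05.

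Clpx also differed between the times in both treatments. It read 830, 639 and 673 at the withdrawal time and 204, 185 and 192 at the end in testosterone mice (log2 change 1.87 ± 0.11, limma adjusted p = 1.02e-07). In vehicle mice it read 834, 927 and 808 at the withdrawal time and 145, 125 and 152 at the end (2.61 ± 0.11, limma adjusted p = 3.6e-09). All mice of the withdrawal time lay above all mice of the end time. On the breakdown side 1 of 7 tested genes fell at the end, or 14.3% called beside 17.4% of all genes. By limma 0 was called after withdrawal, beside 6.00% of all genes, with 1 at an unadjusted p under 0.05. The gene that fell was Hmox1, heme oxygenase 1, which macrophages also express. It read 36.4, 46.0 and 33.3 in testosterone mice and 106, 97.1 and 62.0 in vehicle mice (log2 change -1.17 ± 0.23, limma adjusted p = 0.00344), at the time when 9 of 20 macrophage genes fell. Hmox1 was not called at the end with the actin ratio as a covariate. The part of macrophages in the Hmox1 result was not tested.

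Between the times 2 members were called in vehicle mice, Hamp2 higher and Tfrc lower at the withdrawal time, beside 17.8% of all genes (11.0% higher and 6.83% lower), and 1 in testosterone mice, Hamp2 higher, on the brightest set of each gene, beside 10.9% (5.57% higher and 5.31% lower). Vehicle mice of the 2 times did not overlap for 4 members, beside 35.1% of all genes. They were Hamp2, Tfrc, Alas1, at 689 to 1076 at the withdrawal time and 1546 to 1641 at the end (log2 change -0.85 ± 0.31, limma adjusted p = 0.0692), and Fech, at 641 to 718 at the withdrawal time and 788 to 796 at the end (-0.22 ± 0.08, limma adjusted p = 0.0574). Macrophage genes differed between the times in vehicle mice as well, with 15 of 20 lower at the withdrawal time, beside 6.83% of all genes. Some of these calls were lost with the actin ratio as a covariate. Among them were those of Cd68 (-0.91, limma adjusted p = 0.0719) and C1qb (-0.97, limma adjusted p = 0.0742). Age and time since the last injection differ with the time and cannot be told apart.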

How the data were processed

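Liver RNA of 12 mice was hybridised to 12 arrays, per the labels' protocols from 5 µg of total RNA with a single labelling cycle. The deposited values are linear intensities, 1 per probe set, made with GCOS and MAS5 per the submitters' processing notes, which give no version. The values show that each array had been scaled, with a 2% trimmed mean of 100.05, and no further scaling was applied. The genome build behind the probe annotation is not given in the sources used here.

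Of 22690 probe sets, 64 were controls, and 20380 of the rest had 1 gene symbol. Signals under 4.84, the 25th percentile, were set to that floor before log2. Each gene was read from its brightest probe set (mean log2 signal), and genes above the array median on at least 3 of 12 arrays were tested. Differences were tested with limma 3.58.1 in R 4.3.3 (lmFit, eBayes with a trend) on 4 group means with Benjamini-Hochberg adjustment over 7217 genes. The limma code was tested on simulated data. Where single probe sets are quoted with p-values, the fit was over 12108 probe sets. Folds are ratios of geometric means. The pair tests were exact permutation tests (Python 3.11.15). Groups come from the sample titles, and the mice are separate biological replicates per the design text. Same-numbered mice of different groups did not deviate together (r from -0.19 to 0.01, 0 of 18 over 0.1), so numbers were not used to pair mice.

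The members, 9 gene lists and tests were chosen with earlier results of these data known. Named genes are all members, up to 4 called genes of a list by size and any genes of the iron and heme lists, and the 4 genes most correlated with each hepcidin and ALAS gene. Orm3, Mt1 and Mt2 also fall under that rule. Socs3 falls outside it and is named as the only acute phase gene that rose at the end. Alternatives covered the floor, the filter, the probe set rule, normalization, the variance trend, the actin ratio, the replicate block and single mice.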

Additional observations from a re-analysis of the deposited data

Results flagged for a closer look

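The effect of testosterone differed between the end of treatment and the withdrawal time for 2 probe sets of Tfrc and for 5 genes of the lists, by limma's test of the difference itself. For Tfrc the difference, withdrawal effect minus end effect, was 2.5 ± 0.38 on the log2 scale on 1422966_a_at (limma adjusted p = 0.00582) and 1.01 ± 0.27 on 1452661_at (adjusted p = 0.049), both over all probe sets. Over 1 probe set per gene the second was not called, and the Tfrc difference was called in 4 of 23 alternatives (highest limma adjusted p = 0.922). The set 1422966_a_at was not fitted by itself with the actin ratio as a covariate or without single mice. For Bmp2 it was -1.24 ± 0.29 (limma adjusted p = 0.0418), for Cpox -1.51 ± 0.32 (adjusted p = 0.0302), for Clpx -0.73 ± 0.16 (adjusted p = 0.0337), for the acute phase protein gene Apcs 1.24 ± 0.27 (adjusted p = 0.0352) and for Elovl3, a fatty acid elongase gene of the sex-biased list, 2.3 ± 0.36 (adjusted p = 0.00875). When each of the 12 mice was left out in turn, the call was lost in 9 of 12 cases for Bmp2, Cpox and Clpx each and in 7 for Apcs, and kept in 12 of 12 for Elovl3, whose difference ran from 2.03 to 2.53. The 5 genes lost the call with no filter on dim genes and with the actin ratio as a covariate.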

How the results depend on the processing

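Alas2 was called at both times in all 22 alternatives that gave it a value, and Hamp2 in all 22 after withdrawal and in 21 of 22 at the end, the exception being the actin ratio. Members called at the end numbered 4 with the mean of a gene's probe sets (Tfrc and Slc40a1 added), 0 with sets ending in _s_at, _x_at or _a_at left out, which removes every Alas2 set and the bright Hamp2 set, and 1 with the actin ratio (2 to 3 without single mice). After withdrawal they numbered 2 with no filter, 2 with the mean of probe sets and 2 with those sets left out (2 to 4 without single mice). For the difference between the times 1 was called, Tfrc, with the mean of probe sets, with every probe set tested and with median centring (0 to 1 without single mice). In vehicle mice between the times 1 was called with those sets left out, 4 with median centring and 1 with the actin ratio (1 to 4 without single mice), and in testosterone mice 0 with no filter, with those sets left out, with no variance trend and with the actin ratio (0 to 1 without single mice). Median centring made Fech -0.32 and Alas1 -0.95 in the vehicle contrast. The Hamp2 minus Hamp difference ran from -2.11 to -1.88 without single mice and was -0.92 with the mean of probe sets, which averages in the Hamp2 set at the floor. Alas2 minus Alas1 ran from 1.57 to 1.98 without single mice, with exact permutation p-values of 0.005 to 0.01. Neither has a value with those sets left out. With same-numbered mice as a replicate block the pair differences were again -1.98 and 1.75 (exact permutation of signs, p = 0.0312 each, the smallest allowed), and the block moved no count of members by over 1.5 times. Uncalled changes that turned sign were Alas1 at the end, which ran from -0.11 to 0.34 without single mice, Alas1 after withdrawal, which ran from -0.27 to 0.57 without single mice and was -0.13 with the mean of probe sets and -0.10 with the actin ratio, and Hamp after withdrawal with median centring (0.013). The causes were not tested except where stated.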
